A study of Arabidopsis thaliana with 79 samples.

Results

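The subject is 47 probe sets of an Arabidopsis array whose signal on ribosomes was raised by hypoxia mainly in the line that tags companion cells, the living partners of the sieve tubes in the phloem. They are 47 of 22746 probe sets. They were chosen from measured values: the hypoxia group mean minus the control group mean, on the log2 scale, had to be 1 or more in the pSUC2 line in both roots and shoots. In each organ it also had to lie at least 0.8 above the median of the other promoter lines measured in both conditions, with p35S and total RNA not counted. Of 49 probe sets that met this, those of the zinc finger factor STZ and of AT5G64870 were left out as the selection asks. AT4G10270, the other gene to be left out, did not meet it. Of the 47, 16 map to a single gene and 4 to several, and 27 carry no gene name here, so the 31 probe sets without a single gene are called by their probe set name and given no role.

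The study hybridised RNA of 7-day-old Col-0 seedlings to 79 ATH1 arrays, each array giving 1 log2 signal per probe set. Seedlings were dissected into root and shoot after 2 h in argon (hypoxia) or 2 h in air (control), both started as the light period ended and run in dim light. Every line carried a FLAG-tagged ribosomal protein L18 (RPL18B) behind a promoter, and the RNA bound to the immunopurified tagged ribosomes is polysomal RNA in what follows. The total RNA was that of p35S plant extracts, so hypoxic and control samples alike carried the tagged protein, and each promoter decides which cells contribute. Hypoxic and control roots were measured in the lines pSUC2 (phloem companion cells), pSCR (endodermis), pSHR and pWOL (stele), pGL2 (epidermal cells without hairs), pCO2 (meristematic cortex), pPEP (mature cortex), pRPL11C (dividing cells), p35S (nearly all cells) and as total RNA. Hypoxic and control shoots were measured in pSUC2, pGL2 (trichomes), pRBCS (mesophyll), pCER5 (epidermis), pKAT1 (guard cells), p35S and as total RNA. A second phloem line, pSultr2;2, was measured in control air only, in both organs. Each group had 2 arrays, except 2 hypoxic and 3 control arrays in root p35S and in root pGL2, 3 hypoxic and 4 control arrays in root total RNA, and 3 and 3 in shoot total RNA. The labels call replicates independent experiments.

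Companion cells have a dense cytoplasm rich in mitochondria and feed proteins, RNA and sugar into sieve tubes through plasmodesmata. The SUC2 promoter is that of the sucrose-proton symporter that loads sugar into them. When oxygen runs short, plants keep a small set of messages on ribosomes, including those of fermentation enzymes and of the regulators that start and later damp the response. Small heat shock proteins, which recur among the probe sets described here, are chaperones that bind partly unfolded proteins and hold them until ATP-driven chaperones of the HSP70 and HSP90 families refold them.

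The companion cell identity of the pSUC2 arrays could be checked only in part. Of 56 marker genes listed for cell types, 7 had a probe set with a name here, among them 2 of 18 for phloem and companion cells, and neither of these defines companion cells. SWEET11, a sugar exporter of phloem parenchyma, averaged 9.77 in hypoxic and 9.07 in control shoot pSUC2 arrays, below the medians of 11.68 and 11.63 over the other shoot lines. OPS, a protein of early sieve elements, averaged 5.72 and 5.63 there, against 5.15 and 5.21 in the other shoot lines, whereas in roots it averaged 5.33 in hypoxic and 5.81 in control pSUC2 arrays, against 5.59 and 6.40 in the other root lines. In roots SWEET11 averaged 8.20 in hypoxic and 8.11 in control pSUC2 arrays, against 8.15 and 8.19 in the other lines. "Companion cell" below is therefore the label's name for the pSUC2 line. No xylem and no mesophyll marker of the list was measured under a name. The single markers of other cells in pSUC2 roots were GSO1 of the endodermis (7.85 in hypoxia and 7.86 in control, other lines 7.63 and 7.93), EXPA7 of root hairs (6.22 and 8.03, other lines 6.13 and 8.05), EXPA18 of root hairs (6.27 and 9.01, other lines 6.47 and 8.67) and AUR1 of dividing cells (7.91 and 8.01, other lines 8.56 and 8.76). FMA of guard cells stood at 5.46 and 5.43 in pSUC2 shoots, against 5.65 and 5.79 in the other shoot lines.

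In pSUC2 roots the hypoxia response, hypoxia mean minus control mean on the log2 scale, ran from 1.00 to 7.26 over the 47 probe sets with a median of 2.56. In pSUC2 shoots it ran from 1.02 to 6.49 with a median of 1.89. The other lines' median response for the same probe set was lower by a median of 1.18 in roots and 1.54 in shoots. These values made the selection and are given as a description, with no test. For the same reason nothing is read from the fact that hypoxic and control pSUC2 arrays did not overlap for any of the 47 in either organ, beside 23.9% of all probe sets in roots and 21.5% in shoots, or beside the 3.82% and 2.69% of all probe sets whose pSUC2 response reached 1.

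**Figure D1:**
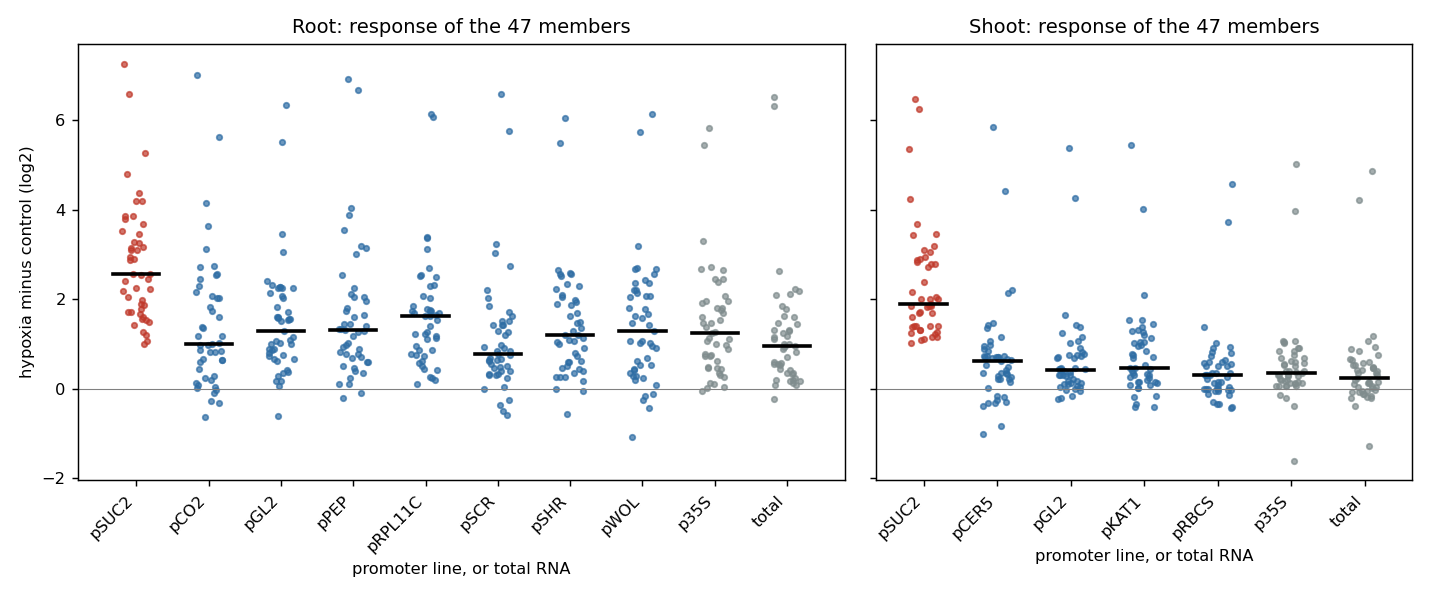
Hypoxia response of each of the 47 probe sets (points; hypoxia group mean minus control group mean, log2) in each promoter line and in total RNA, in roots (left) and shoots (right), with the median as a black bar; pSUC2 is red, other promoter lines blue, p35S and total RNA grey. The pSUC2 medians stand at 2.56 in roots and 1.89 in shoots, and those of the other lines at 0.77 to 1.62 in roots and 0.30 to 0.61 in shoots.

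The responses in the other lines were not alike in the 2 organs. In roots the line medians over the 47 were 1.62 in pRPL11C, 1.31 in pPEP, 1.29 in pGL2, 1.28 in pWOL, 1.19 in pSHR, 1.01 in pCO2 and 0.77 in pSCR. In shoots they were 0.61 in pCER5, 0.47 in pKAT1, 0.42 in pGL2 and 0.30 in pRBCS. Of all probe sets, 4.33% reached a response of 1 in pCO2 roots, 3.81% in pPEP and in pWOL, 3.71% in pSCR, 3.51% in pSHR, 3.39% in pRPL11C and 2.83% in pGL2, and in shoots 2.28% in pCER5, 2.24% in pKAT1, 1.46% in pGL2 and 1.3% in pRBCS. A member reached a response of 1 in a median of 4 of the 7 other root lines but in a median of 0 of the 4 other shoot lines. In roots 13 of the 47 reached 1 in all 7 other lines and 7 in none of them, and in shoots 3 reached 1 in all 4 and 30 in none. The plot of responses by line shows the same: the root columns lie partly above 1, and the shoot columns other than pSUC2 lie mostly below it.

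The pSUC2 response was the highest of all compared lines for 40 of the 47 in roots and for all 47 in shoots. It was larger in roots than in shoots for 33, whereas the excess over the other lines was larger in shoots for 35. The selection asks for a larger pSUC2 response than in the other lines, so these counts and the following levels are a description. It largely fixes that pSUC2 stood further above the other lines' median under hypoxia than in air. In control air the pSUC2 level minus the other lines' median level had a median of -0.01 in roots and 0.02 in shoots, and pSUC2 was the higher for 22 and 24 of the 47. Under hypoxia the same difference had a median of 1.43 in roots and 1.63 in shoots, and pSUC2 was the higher for 43 and 46. The 5 cases in which pSUC2 was not the higher were 258487_at, AT2G29500, AT3G51720 and 254077_at in roots and 247949_at in shoots, and for these the pSUC2 control level was below the other lines' median.

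At one end of the 47, AT3G10040 and 258487_at reached a response of 1 in every other line of both organs. At the other end, AT3G51720, AT3G06480, 265675_at, 267017_at and 256356_s_at reached it in no other line of either organ. The thresholds themselves separate close neighbours. Nearest inside were 260126_at, with a root response of 1.00 and a root excess of 0.80, Hop3 with a root excess of 0.81, 265448_at with a shoot response of 1.02, 248160_at with a root excess of 0.84 and 258325_at with a shoot excess of 0.84. Nearest outside, all on the root excess, were 247351_at at 0.80, AT5G37670 at 0.79, 255926_at at 0.79, 253323_at at 0.79 and 254120_at at 0.78. AT5G37670 encodes another small heat shock protein, and its pSUC2 responses were 2.78 in roots and 2.63 in shoots.

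Of the 16 probe sets with a single gene, 6 encode chaperones or a co-chaperone, 4 regulators or signals, and 2 enzymes, while 4 encode proteins of unknown function; these groups were formed after the values were seen. The 12 probe sets with the largest pSUC2 responses over both organs are given array by array.

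**Figure D2:**
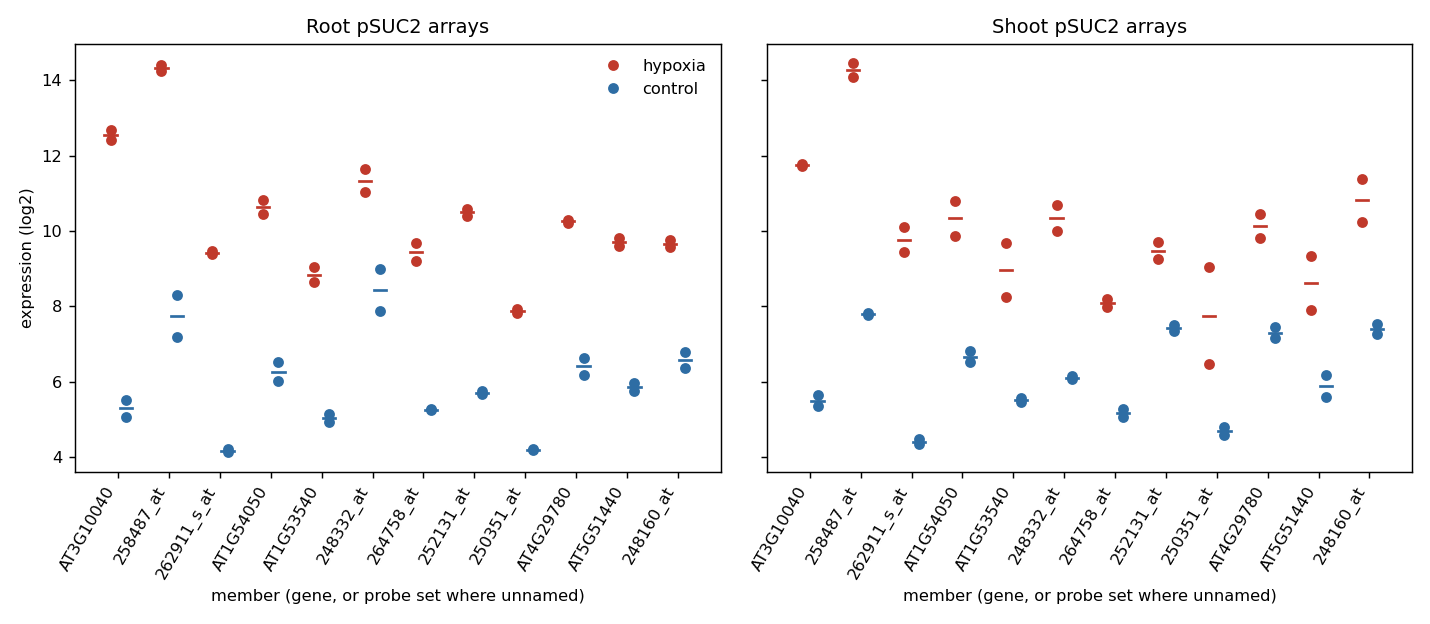
Log2 signal of the 12 leading probe sets in each pSUC2 array (points) with the group mean (line), hypoxia in red left of control in blue, in roots (left panel) and shoots (right panel). No hypoxic array overlaps a control array; the widest distance between replicates is that of 250351_at in hypoxic shoots, at 6.46 and 9.03.

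The chaperones come first by number. AT1G54050, a class III small heat shock protein, had 10.46 and 10.83 in hypoxic pSUC2 roots, against 6.00 and 6.52 in control pSUC2 roots, and 9.88 and 10.81 in hypoxic pSUC2 shoots, against 6.81 and 6.52 in control pSUC2 shoots. Both hypoxic arrays exceeded both control arrays in each organ. Its response was 4.38 ± 0.85 in roots (SE of the fit, n = 2 and 2), against a median of 2.29 over the other lines, of which pCO2 came nearest with 3.63. In shoots it was 3.68, against a median of 1.26 and a highest value of 1.38 in the other lines.

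AT1G53540, a cytosolic class I small heat shock protein, had 8.65 and 9.03 in hypoxic pSUC2 roots, against 4.93 and 5.14 in control pSUC2 roots. Its pSUC2 shoots had 8.25 and 9.67 under hypoxia, against 5.57 and 5.45 in control. All 4 hypoxic arrays lay more than 2 log2 units above their controls, and none of the compared lines reached a response of 2. The pSUC2 responses were 3.80 and 3.45, the other root lines lay between 0.68 and 1.65, and the other shoot lines between 0.31 and 0.70.

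AT5G51440, a mitochondrial small heat shock protein, had 9.61 and 9.81 in hypoxic pSUC2 roots, against 5.74 and 5.97 in control pSUC2 roots. Shoot pSUC2 arrays had 7.90 and 9.32 under hypoxia, against 5.60 and 6.18 in control. The root response of 3.85 was not the highest, since meristematic cortex (pCO2) gave 4.15. In shoots 2.72 stood against 2.10 in guard cells (pKAT1), the nearest line.

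AT1G52560, the small heat shock protein HSP26.5, differed most between organs. It had 9.19 and 8.73 in hypoxic pSUC2 roots, against 4.81 and 4.72 in control pSUC2 roots, a response of 4.19 beside 1.43 to 2.71 in the other root lines. The pSUC2 shoot arrays gave only 5.58 and 5.39 under hypoxia, against 4.42 and 4.25 in control, and the other shoot lines did not move (-0.25 to 0.09). AT2G29500, another class I small heat shock protein, had 6.51 and 7.51 in hypoxic pSUC2 roots, against 4.84 and 4.68 in control pSUC2 roots, and 5.74 and 7.27 in hypoxic pSUC2 shoots, against 4.50 and 4.85 in control pSUC2 shoots. Its replicates under hypoxia lay further apart than those of the other chaperones.

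Hop3, which joins HSP70 to HSP90, had the smallest root response of the 6. It had 8.30 and 8.41 in hypoxic pSUC2 roots, against 6.74 and 6.56 in control pSUC2 roots, and 5.82 and 6.67 in hypoxic pSUC2 shoots, against 4.92 and 4.78 in control pSUC2 shoots. Its root response of 1.71 was below the 2.46 of pCO2, and its shoot response of 1.39 was above the 0.34 to 0.72 of the other lines.

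The regulators hold the largest root response of all. AT3G10040 (HRA1) encodes a trihelix factor that damps the hypoxia response by acting on the ethylene response factor RAP2.12. It had 12.69 and 12.42 in hypoxic pSUC2 roots, against 5.06 and 5.52 in control pSUC2 roots, and 11.73 and 11.79 in hypoxic pSUC2 shoots, against 5.64 and 5.34 in control pSUC2 shoots. The responses of 7.26 and 6.26 (SE 0.34 each) were the highest of the compared lines, yet the other lines responded nearly as much, with 6.06 to 7.02 in roots and 4.58 to 5.84 in shoots. The excess over their median was 0.93 in roots and 0.85 in shoots, and much of it was in the control arrays. In control air its pSUC2 level minus the other lines' median was -0.55 in roots and -0.61 in shoots, and under hypoxia 0.44 and 0.07.

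AT3G10930, a short secreted peptide of the IDA-like group (IDL7), had 9.20 and 8.79 in hypoxic pSUC2 roots, against 5.85 and 5.57 in control pSUC2 roots. In shoots of pSUC2 the values were 8.83 and 9.30 under hypoxia, against 5.94 and 6.00 in control. The 2 responses were close, 3.28 and 3.10, and the other lines reached at most 2.31 in roots and 1.29 in shoots. AT3G62260, a protein phosphatase of the PP2C family, had 9.83 and 9.61 in hypoxic pSUC2 roots, against 7.46 and 7.89 in control pSUC2 roots, and 8.32 and 9.05 in hypoxic pSUC2 shoots, against 7.40 and 7.16 in control pSUC2 shoots.

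AT4G39780, a factor of the ERF/DREB family, had a smaller response, 1.56 ± 0.20 in roots and 1.40 ± 0.20 in shoots (SE of the fit, n = 2 and 2). It had 8.17 and 7.89 in hypoxic pSUC2 roots, against 6.37 and 6.57 in control pSUC2 roots, and 9.99 and 9.86 in hypoxic pSUC2 shoots, against 8.27 and 8.78 in control pSUC2 shoots. Its shoot level was high in air as well, with a control mean of 8.52 in pSUC2, against a median of 6.77 in the other shoot lines.

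The enzymes differed in how far they were shared. AT2G32020, of the GNAT acetyltransferase family, had 8.62 and 9.26 in hypoxic pSUC2 roots, against 5.74 and 5.84 in control pSUC2 roots, a response of 3.15 that mature cortex (pPEP, 3.20) matched. The shoot arrays of pSUC2 had 7.58 and 8.23 under hypoxia, against 6.37 and 6.63 in control. AT3G06480, a DEAD-box RNA helicase, had 8.11 and 8.10 in hypoxic pSUC2 roots, against 6.76 and 7.32 in control pSUC2 roots. In pSUC2 shoots it had 7.90 and 9.00 under hypoxia, against 7.07 and 7.63 in control. Its responses of 1.06 and 1.1 were close to the threshold, and the other lines' medians were slightly negative, -0.09 in roots and -0.23 in shoots.

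Among the proteins of unknown function, AT4G29780 had 10.30 and 10.22 in hypoxic pSUC2 roots, against 6.63 and 6.18 in control pSUC2 roots, and 9.81 and 10.46 in hypoxic pSUC2 shoots, against 7.15 and 7.45 in control pSUC2 shoots. Its response was 3.86 beside 1.21 to 2.52 in the other root lines and 2.83 beside 0.04 to 0.75 in the other shoot lines. AT1G32920 had 11.32 and 11.14 in hypoxic pSUC2 roots, against 7.63 and 7.79 in control pSUC2 roots, and every other root line responded too, by 2.28 to 3.19. In shoots only pSUC2 among the compared lines reached 1, with 11.16 and 11.57 under hypoxia, against 10.04 and 10.09 in control, and values of -0.31 to 0.01 elsewhere.

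AT1G68500 and AT3G51720 reached a response of 1 in no other root line. AT1G68500 had 8.16 and 7.42 in hypoxic pSUC2 roots, against 6.16 and 5.99 in control pSUC2 roots, while the other root lines gave -0.59 to 0.26. In pSUC2 shoots it had 8.14 and 8.40 under hypoxia, against 6.45 and 6.86 in control. AT3G51720 had 9.63 and 9.48 in hypoxic pSUC2 roots, against 8.34 and 8.24 in control pSUC2 roots, and 8.59 and 8.46 in hypoxic pSUC2 shoots, against 6.69 and 6.68 in control pSUC2 shoots. Its shoot response of 1.84 stood against at most 0.26 in any other shoot line.

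The 31 probe sets without a single gene include the largest shoot response. In pSUC2 roots 258487_at had 14.41 and 14.25 under hypoxia, against 8.30 and 7.19 in control, and in pSUC2 shoots it had 14.09 and 14.45 under hypoxia, against 7.76 and 7.81 in control. The other shoot lines responded by 3.72 to 4.42 and the other root lines by 5.49 to 6.94, with pPEP above the 6.59 of pSUC2. Under hypoxia its pSUC2 level was close to the other lines' median, by -0.10 in roots and 0.26 in shoots, while in control air it was lower, by -0.89 and -2.05. In hypoxic pSUC2 roots 262911_s_at had 9.38 and 9.46, against 4.12 and 4.20 in control, and in hypoxic pSUC2 shoots 9.43 and 10.10, against 4.47 and 4.34 in control. Its shoot excess of 4.03 over the other lines was the largest of the 47. The response of 248332_at was larger in shoots, 4.25 beside 2.91 in roots, with 11.04 and 11.64 in hypoxic roots, against 7.87 and 8.99 in control roots, and 10.00 and 10.70 in hypoxic shoots, against 6.14 and 6.07 in control shoots.

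The remaining leading probe sets had clear root responses. In pSUC2 roots 252131_at had 10.58 and 10.41 under hypoxia, against 5.75 and 5.66 in control, and in pSUC2 shoots 9.25 and 9.71, against 7.51 and 7.34 in control. In pSUC2 roots 264758_at had 9.68 and 9.21 under hypoxia, against 5.26 and 5.23 in control, and in pSUC2 shoots 7.98 and 8.20, against 5.26 and 5.05 in control. For both, the root response was the larger, 4.79 and 4.20 in roots beside 2.05 and 2.94 in shoots. In pSUC2 roots 248160_at had 9.76 and 9.57 under hypoxia, against 6.78 and 6.36 in control, and in pSUC2 shoots 10.24 and 11.39, against 7.26 and 7.52 in control. In pSUC2 roots 250351_at had 7.81 and 7.93 under hypoxia, against 4.17 and 4.21 in control, and in pSUC2 shoots 6.46 and 9.03, against 4.57 and 4.79 in control.

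The hypoxic pSUC2 arrays of the 2 experiments were closer in roots than in shoots. The median rise of the 47 over the control mean was 2.61 and 2.58 in the root arrays, and 1.78 and 2.28 in the shoot arrays. In shoots the second array was the higher for 37 of the 47, in roots for 22. RNA integrity, read from the 3′ minus 5′ signal of the array's own control probes, differed little in roots: for actin 6.14 ± 0.17 in hypoxic and 6.23 ± 0.09 in control pSUC2 roots, and for GAPDH 3.82 ± 0.20 and 3.48 ± 0.27 (SD, n = 2 each). In pSUC2 shoots it was 5.80 ± 0.17 under hypoxia and 5.62 ± 0.23 in control for actin, and 2.92 ± 0.63 under hypoxia and 2.34 ± 0.07 in control for GAPDH. The part of RNA integrity in the responses was not tested.

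Whole organs are where the selection used no array, so total RNA and p35S polysomal RNA could be tested. A probe set is called here when its adjusted p (limma, Benjamini-Hochberg over 22746 probe sets) is under 0.05 and its log2 difference is at least 1. In RNA from whole organs, and in that from any tagged line, fewer cells of a type and less RNA per cell cannot be told apart.

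Some of these arrays stand apart from their replicates in these probe sets. In hypoxic root p35S the median rise of the 47 over the control mean was 0.27 in replicate 1 and 2.02 in replicate 3. In hypoxic root total RNA it was 0.14 in replicate 1, 1.37 in replicate 3 and 0.64 in replicate 4. For the 6 chaperones the medians were -0.01 and 3.94 in p35S and -0.09, 3.18 and 0.72 in total RNA. Replicate 1 of both populations was thus near the control level while replicate 3 was near the hypoxic pSUC2 roots, at 3.68 and 3.96.

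The arrays did not differ in this way for the core hypoxia genes, a list of genes induced by low oxygen across cell types. This list was chosen with earlier results of these data known. The 8 of its measured genes outside the 47 rose by a median of 5.97 and 5.76 in the p35S arrays and by 5.94, 5.67 and 5.82 in the total RNA arrays. The 3′ minus 5′ gap of GAPDH was 2.98 and 3.29 in the p35S arrays and 3.19, 3.41 and 2.50 in the total RNA arrays. That of actin was 5.73 and 5.74 in the p35S arrays and 6.07, 5.45 and 6.61 in the total RNA arrays, lowest in replicate 3. Between the hypoxic p35S root arrays the SD had a median of 0.87 over the 47 and 2.89 over the chaperones, against 0.14 over all probe sets. What set these arrays apart was not tested, and calls of named genes that change without one of them are given with and without it.

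**Figure D3:**
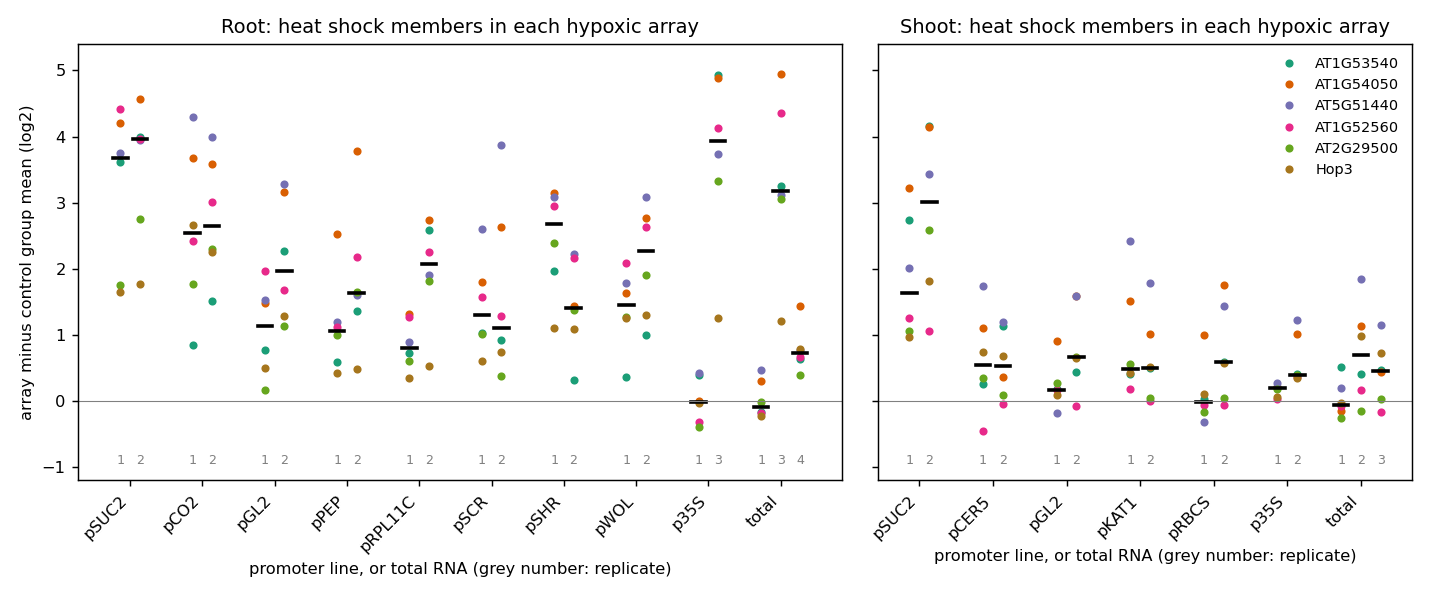
Each hypoxic array's signal minus its control group mean (log2) for the 6 chaperone members (coloured points) with their median (black bar), by promoter line and total RNA, in roots (left) and shoots (right); grey numbers are replicates. The medians in pSUC2 roots are 3.68 and 3.96, the root p35S medians are -0.01 and 3.94, and in shoots no promoter line other than pSUC2 exceeds 0.66 and total RNA reaches 0.70.

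In p35S polysomal RNA of whole roots, 18 of the 47 were called higher under hypoxia and none lower, beside 1.98% of all probe sets called higher and 0.857% called lower. The median difference over the 47 was 1.23, against 0.02 over all probe sets. Without hypoxic replicate 1 the count was 34, and without hypoxic replicate 3 it was 3, namely AT3G10040, 258487_at and 252131_at. A fit to the compared groups alone, which takes the spread from those arrays only, called 4. Counts over all probe sets under such alternatives are not given here. In total RNA of whole roots, 13 were called higher and none lower, beside 2.13% and 1.24% of all probe sets, with a median difference of 0.95, against 0.01. Without hypoxic replicate 1 the total RNA count was 25, without replicate 3 it was 10 and without replicate 4 it was 15, and with 50 added to the linear values it was 8. Every hypoxic array lay above every control array for 18 of the 47 in root total RNA, beside 8.5% of all probe sets. Both root populations called 10 probe sets in common, and 21 were called in at least one of them. The total RNA came from p35S extracts, so this overlap is not independent agreement. Same-numbered p35S and total RNA arrays deviated together with r of 0.55 and 0.50 in hypoxic roots. In control roots r was 0.01, 0.15 and 0.39. Markers of another cell type fell in the same comparisons: both measured epidermis and root hair genes of 11 listed were called lower. EXPA7 differed by -1.27 ± 0.23 in p35S and -1.67 ± 0.19 in total RNA (limma's adjusted p = 0.000118 and 3.03e-09). EXPA18 differed by -1.05 ± 0.29 in p35S and -1.89 ± 0.24 in total RNA (limma's adjusted p = 0.0184 and 6.01e-08), and its p35S call was lost without hypoxic replicate 3 (-0.79) or control replicate 3 (-0.96). In pSUC2 roots EXPA7 and EXPA18 differed by -1.81 and -2.74, and the medians over the other root lines were -1.76 and -2.09. No other measured cell type marker was called in root p35S or root total RNA. The part of these marker changes in the members' differences was not tested.

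AT3G10040 and 258487_at had the largest differences in both. AT3G10040 had 11.74 and 11.36 in hypoxic p35S roots, against 5.82, 5.53 and 5.79 in control p35S roots, a difference of 5.84 ± 0.31 (SE) with adjusted p = 2e-20 by limma. In total RNA it had 11.60, 11.44 and 12.04 in hypoxic roots, against 5.14, 5.68, 5.53 and 5.18 in control roots, a difference of 6.32 ± 0.26 with limma's adjusted p = 2.67e-25. Hypoxic and control arrays were far apart in both populations. For 258487_at total RNA of hypoxic roots had 14.03, 14.09 and 14.73, against 7.68, 7.24, 8.53 and 7.55 in control roots, a difference of 6.53 ± 0.29 (limma's adjusted p = 1.8e-23), and p35S gave 5.44 ± 0.35.

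AT1G53540 shows the split between arrays most plainly. It had 5.47 and 10.01 in hypoxic p35S roots, against 4.99, 5.13 and 5.11 in control p35S roots, and the difference of 2.66 ± 0.65 was called (limma's adjusted p = 0.00615); without hypoxic replicate 3 it was 0.39 and not called. In total RNA it had 5.01, 8.43 and 5.81 in hypoxic roots, against 5.13, 5.31, 5.22 and 5.05 in control roots. The first of these hypoxic arrays lay below all its controls, and the difference of 1.24 ± 0.54 was not called (limma's adjusted p = 0.167); without that array it was 1.94 and called (limma's adjusted p = 0.0208). AT5G51440 had 6.02 and 9.34 in hypoxic p35S roots, against 5.28, 5.71 and 5.82 in control p35S roots, a called difference of 2.08 ± 0.63 (limma's adjusted p = 0.0414). It was not called without any of the 3 control arrays or without hypoxic replicate 3, where it was 0.42. In total RNA its difference of 1.45 was not called; with the replicate number as a block, as the paired experiments allow, it was 1.46 with adjusted p = 0.0445 (limma).

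AT1G54050 had 6.27, 10.90 and 7.40 in total RNA of hypoxic roots, against 6.17, 5.91, 6.43 and 5.32 in control roots, so that the hypoxic and control ranges overlapped. The difference of 2.23 ± 0.65 was called (limma's adjusted p = 0.0169), but without hypoxic replicate 3 it was 0.87, and without control replicate 4 it was no longer called either. In p35S roots AT1G54050's difference of 2.44 ± 0.77 missed the threshold (limma's adjusted p = 0.0533), with 6.66 and 11.55 in hypoxic roots, against 6.54, 6.58 and 6.87 in control roots. Of the 6 chaperones, 2 were called in p35S roots and 1 in root total RNA. The uncalled ones had differences of 1.90 ± 0.67 in p35S and 1.62 ± 0.56 in total RNA for AT1G52560, 1.47 and 1.15 for AT2G29500, and 0.61 and 0.59 for Hop3. Without hypoxic replicate 1 these p35S differences were 4.13, 3.33 and 1.25, all called, and that of AT1G54050 was 4.89 and called. Without hypoxic replicate 1 of total RNA all 6 were called there, with 2.52 for AT1G52560, 1.94 for AT5G51440, 1.72 for AT2G29500 and 1.00 for Hop3.

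Of the regulators, only AT3G10040 was called in the root populations. AT3G10930 had a difference of 1.53 ± 0.49 in p35S roots (limma's adjusted p = 0.0599) and of 0.96 ± 0.41 in root total RNA. Without hypoxic replicate 1 they were 2.96 in p35S and 1.40 in total RNA, both called, as was AT3G10930 in p35S without control replicate 3, at 1.89. AT3G62260 had 0.88 in p35S, 1.35 and called without hypoxic replicate 1, and 0.56 in total RNA, and AT4G39780 had 0.31 and 0.20.

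The genes of unknown function divided in the same way in both root populations. AT4G29780 had 7.78 and 9.24 in hypoxic p35S roots, against 6.73, 6.28 and 6.65 in control p35S roots, a difference of 1.96 ± 0.34 (limma's adjusted p = 6.4e-05). In total RNA it had 8.01, 8.42 and 8.06 in hypoxic roots, against 6.69, 6.65, 6.68 and 6.75 in control roots, 1.47 ± 0.28 (limma's adjusted p = 0.000187). AT1G32920 had 9.22 and 11.42 in hypoxic p35S roots, against 8.57, 8.58 and 8.55 in control p35S roots, with a difference of 1.75 ± 0.37 (limma's adjusted p = 0.00124). Without hypoxic p35S replicate 3 the differences were 1.23 for AT4G29780 and 0.65 for AT1G32920, neither called. Both genes were above every control array in every hypoxic array, though by little in p35S replicate 1 for AT1G32920.

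AT1G32920 in total RNA had 9.41, 10.61 and 10.42 in hypoxic roots, against 8.17, 7.88, 8.22 and 7.84 in control roots, 2.12 ± 0.31 (limma's adjusted p = 1.26e-06). AT1G68500 (0.01 in p35S and -0.22 in total RNA) and AT3G51720 (0.11 and 0.23) were not called and stayed near 0. The same was true of the helicase AT3G06480, with -0.06 and 0.12.

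The acetyltransferase AT2G32020 had 7.78 and 8.64 in hypoxic p35S roots, against 6.74, 6.37 and 6.10 in control p35S roots, 1.81 ± 0.39 (limma's adjusted p = 0.00162). In total RNA it had 7.80, 8.91 and 7.69 in hypoxic roots, against 5.85, 5.98, 6.3 and 5.72 in control roots, 2.17 ± 0.33 (limma's adjusted p = 2.37e-06). No hypoxic array overlapped a control array in either. Without hypoxic p35S replicate 3 the p35S difference was 1.38 and not called. Among the unnamed, 252131_at differed by 2.65 ± 0.33 in p35S (limma's adjusted p = 4.78e-08) and 2.62 ± 0.28 in total RNA (2.79e-10). In p35S 262911_s_at differed by 3.31 ± 0.87 (limma's adjusted p = 0.0123) and 250351_at by 2.72 ± 0.69 (0.00984), with hypoxic SDs of 4.08 and 3.46. The last 2 were 0.43 and 0.27 without hypoxic replicate 3, and not called. In total RNA 248160_at differed by 1.85 ± 0.34 (7.48e-05) and 264758_at by 1.78 ± 0.38 (0.000683).

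**Figure D4:**
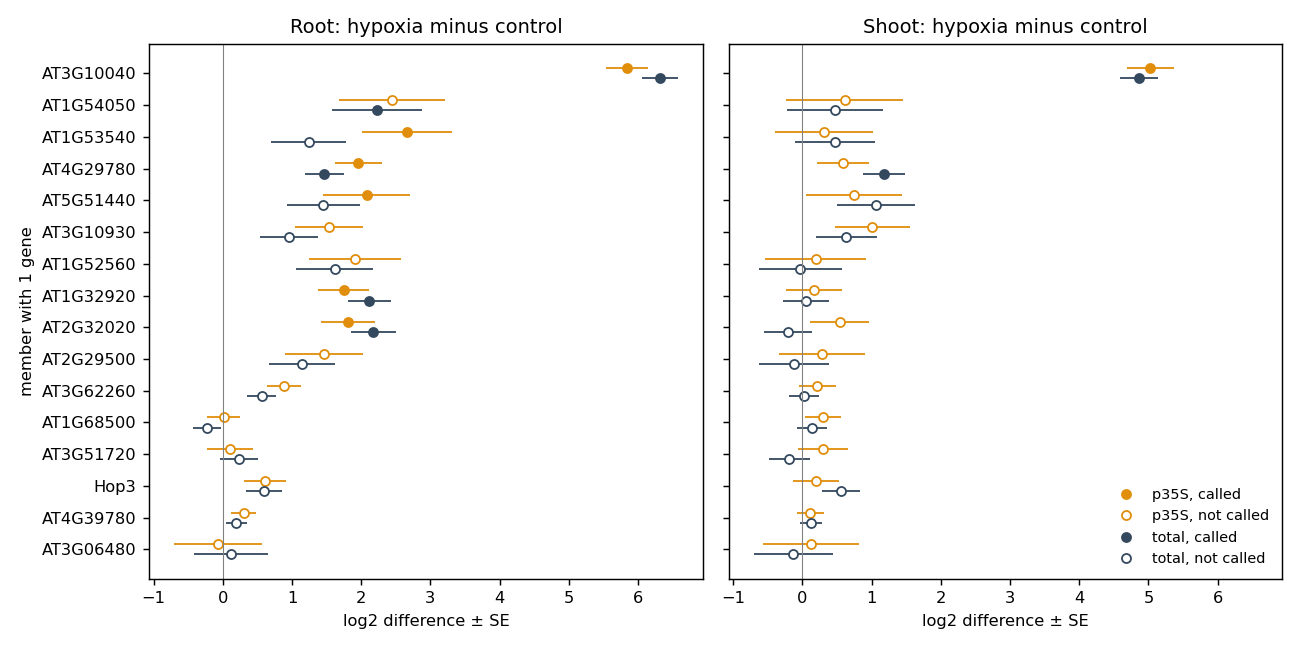
Hypoxia minus control log2 difference with its SE for the 16 single-gene members in p35S polysomal RNA (orange) and total RNA (dark), in whole roots (left) and shoots (right); filled circles were called. AT3G10040 is called in all 4 populations, and AT4G29780 is the other filled gene in shoots, at 1.17 in total RNA.

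In shoots fewer were called. In shoot p35S polysomal RNA 2 of the 47 were called higher and none lower, beside 1.05% of all probe sets higher and 0.167% lower, with a median difference of 0.34, against -0.02. In shoot total RNA 3 were called higher and 1 lower, beside 1.28% and 0.528%, with a median of 0.23, against -0.04. The difference was above 0 for 43 of the 47 in p35S and 34 in total RNA. Every hypoxic array lay above every control array for 8 in total RNA, beside 4.77% of all probe sets. AT3G10040 had 10.52 and 11.27 in hypoxic p35S shoots, against 5.72 and 6.01 in control p35S shoots, 5.03 ± 0.34 (limma's adjusted p = 5.87e-16). In total RNA AT3G10040 had 9.97, 11.20 and 11.49 in hypoxic shoots, against 5.64, 6.36 and 6.05 in control shoots, 4.87 ± 0.27 (limma's adjusted p = 6.02e-19).

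The second called in both was 258487_at, with 3.96 ± 0.38 in p35S (limma's adjusted p = 9.35e-11) and 4.21 ± 0.31 in total RNA (1.21e-14). AT4G29780 had 7.00, 8.21 and 8.13 in total RNA of hypoxic shoots, against 6.74, 6.77 and 6.31 in control shoots, 1.17 ± 0.30 (limma's adjusted p = 0.0118). All of its hypoxic arrays exceeded all controls, but the call was lost without hypoxic replicate 2 (0.96), hypoxic replicate 3 (1.00) or control replicate 3 (1.03). None of the 6 chaperones was called in shoots; their differences ran from 0.19 to 0.75 in p35S and from -0.13 to 1.07 in total RNA. These 6 had responses of 1.16 to 3.68 in pSUC2 shoots.

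One probe set went against its own selection in whole shoots. In total RNA 265211_at had 7.25, 7.04 and 8.02 in hypoxic shoots, against 9.25, 8.63 and 8.30 in control shoots, a difference of -1.28 ± 0.38 (limma's adjusted p = 0.0323). Leaving out hypoxic replicate 1 or 2 or control replicate 1 or 2 ended this call, with differences of -1.33 to -1.02. In p35S it had 7.13 and 6.84 in hypoxic shoots, against 8.88 and 8.31 in control shoots, -1.61 and not called. In pSUC2 shoots it had 7.20 and 7.15 under hypoxia, against 5.55 and 5.12 in control. The hypoxic values were thus alike in the 3 populations, and the control values differed.

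Roots and shoots were compared directly, as the root response minus the shoot response. In total RNA 5 of the 47 were called with the larger response in roots and none in shoots, beside 0.866% and 0.743% of all probe sets, and the median of this difference was 0.63, against 0.05 over all probe sets. They were AT2G32020 at 2.38 ± 0.48 (limma's adjusted p = 0.0016), 258487_at at 2.32 ± 0.43 (0.000537), AT1G32920 at 2.07 ± 0.45 (0.00419), 252131_at at 1.87 ± 0.40 (0.00342) and AT3G10040 at 1.45 ± 0.38 (0.022). The last was not called without hypoxic root replicate 4 (1.28), control shoot replicate 2 (1.28) or hypoxic shoot replicate 1 (0.99). The shoot values behind AT1G32920 were 9.70, 10.46 and 10.00 under hypoxia, against 10.09, 10.27 and 9.65 in control. For AT2G32020 they were 7.01, 7.29 and 6.16 under hypoxia, against 7.00, 7.69 and 6.37 in control. For 252131_at they were 7.29, 7.75 and 7.69 under hypoxia, against 6.71, 7.81 and 5.97 in control. In these 3 the shoot arrays overlapped while the root arrays did not.

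In p35S the median root minus shoot difference was 0.85, against 0.03 over all probe sets, yet limma called none of the 47, beside 0.356% and 0.255% of all probe sets. At an unadjusted p under 0.05 there were 12 of the 47, beside 1523 of the 22746 probe sets. Without hypoxic root p35S replicate 1 the count was 16.

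Polysomal RNA was compared with total RNA. The difference also depends on which cells p35S tags and on the purification. It does not by itself give how far messages were on ribosomes. In hypoxic roots 2 of the 47 were called higher in p35S than in total RNA and none lower, beside 2.33% of all probe sets in each direction. AT3G51720 had 10.54 and 10.97 in hypoxic p35S roots, against 9.46, 9.21 and 9.29 in total RNA, 1.44 ± 0.33 (limma's adjusted p = 0.00188), and 247279_at had 11.38 and 11.38, against 10.37, 10.50 and 9.40, 1.29 ± 0.25 (0.000303). Without p35S replicate 3 the first was 1.23 and without total RNA replicate 4 the second was 0.95, neither called. With the replicate number as a block, the second was 0.95 too (limma's adjusted p = 0.0101) and under the fold of the call. Without p35S replicate 1 the count was 22, and without total RNA replicate 3 it was 14, the same arrays as above. In control roots 1 was called higher and 1 lower, beside 2.9% and 3.13%. AT3G51720 was higher in p35S there too, with 10.99, 10.28 and 10.69, against 9.31, 8.94, 8.99 and 9.09 in total RNA, 1.57 ± 0.27 (limma's adjusted p = 2.12e-05). The lower was 254077_at, at -1.88 ± 0.49 (0.00314).

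In hypoxic shoots 2 were called higher in p35S and none lower, beside 1.88% and 1.66%. AT2G32020 had 8.10 and 8.65 in hypoxic p35S shoots, against 7.01, 7.29 and 6.16 in total RNA, 1.56 ± 0.39 (limma's adjusted p = 0.0054). AT1G32920 had 11.17 and 11.20, against 9.70, 10.46 and 10.00 in total RNA, 1.13 ± 0.37 (limma's adjusted p = 0.0373). The first was not called without p35S replicate 2 (1.28) or total RNA replicate 3 (1.23), and the second without any of the p35S arrays or without total RNA replicate 1 or 3 (0.95 to 1.15). Neither gene was called in control shoots, where limma called none of the 47, beside 0.888% and 2.24%. There 4 of the 47 had an unadjusted p under 0.05, beside 5479 of the 22746 probe sets. The change of this ratio under hypoxia was tested itself. Limma called none of the 47 in roots, beside 0.00879% and 0.0176% of all probe sets, and none in shoots, beside 0% and 0%. At an unadjusted p under 0.05 there were 1 in roots and 0 in shoots, beside 674 and 563 of the 22746 probe sets. The medians over the 47 were 0.24 and 0.14.

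The second phloem line gives control values that the selection did not use. In roots 1 of the 47 was called lower in pSultr2;2 than in p35S and none higher, beside 1.42% and 2.44% of all probe sets. It was 247279_at, with 10.05 and 9.61 in pSultr2;2, against 10.99, 10.70 and 11.14 in p35S, -1.11 ± 0.25 (limma's adjusted p = 0.00208), and not called without pSultr2;2 replicate 2 (-0.89). In shoots 5 were called lower and none higher, beside 1.44% and 2.71%. AT2G32020 had 5.81 and 6.23 in pSultr2;2 shoots, against 7.62 and 8.04 in p35S shoots, -1.82 ± 0.43 (limma's adjusted p = 0.0033). The others were 265211_at at -3.35 ± 0.46 (5.7e-07), 258487_at at -2.39 ± 0.38 (1.46e-05), 247949_at at -1.96 ± 0.42 (0.00108) and 252131_at at -1.33 ± 0.36 (0.0121). AT2G32020 lost its call without p35S replicate 2 or pSultr2;2 replicate 1 (-1.61 in both), and 252131_at without p35S replicate 2 (-0.93) or either pSultr2;2 array (-1.36 and -1.30). The median over the 47 was -0.02 in roots and -0.15 in shoots. Whether these probe sets respond to hypoxia in pSultr2;2 was not measured in the arrays used here.

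Genes of the same pathways that are not among the 47 were looked at through lists. Of 25 listed heat shock factors and proteins, 5 had a probe set with a name: AT1G53540, AT5G51440 and AT1G52560, which are members, and ATHSP22.0 and AT5G48570, which are not. ATHSP22.0, a small heat shock protein of the endoplasmic reticulum, had a pSUC2 response of 1.14 in roots, against a median of 0.22 in the other lines, and 0.39 in shoots, against 0.18. AT5G48570 (ROF2), a co-chaperone of HSP90, had 1.67 in roots, against 1.5, and 1.43 in shoots, against 0.27. Limma called 3 of the 5 in p35S roots, among them ATHSP22.0 at 1.52 ± 0.36 (adjusted p = 0.00498), 1 in root total RNA, AT5G48570 at 1.15 ± 0.35 (adjusted p = 0.0248), and none in either shoot population, where the medians were 0.21 in p35S and 0.28 in total RNA. Without hypoxic p35S replicate 3 none of the 5 was called in p35S roots and ATHSP22.0 was at 0.04, while without replicate 1 all 5 were called. In root total RNA 4 were called without hypoxic replicate 1 and none without hypoxic replicate 3 or control replicate 1, where AT5G48570 was at 0.52 and 0.97; its call was also lost without hypoxic replicate 4 (1.08).

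The core hypoxia list ran differently. Of 21 genes 9 were measured under a name, 1 of them the member AT3G10040. All 9 were called higher in each of the 4 whole-organ populations. The list was chosen with earlier results of these data known, so these calls are a description. The median differences of the 9 were 5.84 in root p35S, 5.98 in root total RNA, 4.43 in shoot p35S and 4.31 in shoot total RNA. In pSUC2 several of them responded less than in the other lines: AT4G27450 by 2.04 in roots, against a median of 4.59, AT4G33560 by 5.48, against 6.84, and AT2G17850 by 4.82, against 5.99. AT4G24110 responded more in pSUC2 shoots, by 5.13, against 3.39, and AT1G33055 by 5.65, against 4.46. For AT4G27450, AT4G24110 and AT1G33055 the lines differed mainly in air. In control, pSUC2 roots had 11.31, against 8.71, for AT4G27450, and pSUC2 shoots 6.41, against 8.10, and 6.94, against 8.46, for the others. Under hypoxia these were 13.34, against 13.23, then 11.53, against 11.56, and 12.59, against 12.96. AT4G33560 and AT2G17850 differed in hypoxic roots instead, at 10.54, against 11.96, and 9.69, against 10.86.

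The other lists held fewer measured genes. Of 16 WRKY factors 3 were measured, and WRKY22 was called in root p35S at 4.09 ± 0.47 (limma's adjusted p = 6.78e-09), in root total RNA at 4.08 ± 0.39 (2.46e-11) and in shoot total RNA at 1.42 ± 0.42 (0.0364), the last lost without any control array or without hypoxic replicate 2 or 3 (1.27 to 1.49). WRKY53, a regulator of stress and senescence genes, was called in root p35S at 1.43 ± 0.36 (0.0081), though not without hypoxic replicate 3 (0.61), and in root total RNA (0.77) it was called only without hypoxic replicate 1 (1.04). Its pSUC2 response was 4.07 in roots, against 1.46 in the other lines, and 0.88 in shoots, against 0.67. Of 11 calcium signalling genes 5 were measured. The calmodulin-like CML38 was called in all 4 populations, at 5.35 and 5.52 in root p35S and total RNA and 4.83 and 4.45 in shoot p35S and total RNA, and AT1G76640 in root total RNA at 1.01 ± 0.24 (limma's adjusted p = 0.00265), which fell under 1 without hypoxic replicate 3 or 4 or control replicate 2 or 4 (0.77 to 1.00). Of 11 oxidative stress genes only GSTU25 was measured, and it was not called in the hypoxia comparisons. In control roots GSTU25 was lower in pSultr2;2 than in p35S, by -2.39 ± 0.27 (limma's adjusted p = 5.35e-09), and higher in p35S than in total RNA, by 1.56 ± 0.23 (7.85e-07). The lists of jasmonate and wounding genes (20), ERF and DREB factors (14), C2H2 zinc finger factors (6) and ethylene synthesis genes (4) had no measured gene with a name here.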

How the data were processed

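The authors deposited log2 signals of 79 ATH1 arrays, made with RMA in the R package affy per the submitters' processing notes; versions are not given in the sources used here. RMA corrects background, quantile-normalizes probes and summarises each probe set by median polish. It is not known whether the 79 arrays were normalized as one set. Of 22810 probe sets the 64 control ones were left out, with no other filter. Per the labels' protocols, cDNA was made from 15 to 100 ng of RNA in 2 rounds, a method that favours the 3′ ends of messages. Array medians ran from 6.31 to 6.64, replicate arrays correlated at 0.973 to 0.994, and no pair was identical. Precision is limited by how many arrays there are.

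The 36 group means were estimated together in limma 3.58.1 (R 4.3.3; 43 residual and 4.48 prior degrees of freedom), so the spread is pooled and each pair of arrays is taken to vary as the rest do. Tests were made for 14 contrasts in arrays that the selection did not use. On simulated data, 92% to 97% of genes changed by 1.5 and 100% of those changed by 3 (log2) were called in the 4 whole-organ comparisons. The simulated arrays had 1 spread per probe set, the same in every group. In hypoxic root p35S the members' SD had a median of 0.87, against 0.14 over all probe sets. The simulated recovery therefore does not describe members whose replicates disagreed in this way. Names came from the platform annotation, matched to RefSeq TAIR10.1: 13513 probe sets have 1 gene, 503 several and 8730 none.

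The members, the gene lists and the tests were chosen with earlier results of these data known. Every member with a single gene was named, 12 leading members were given array by array, and so were the 5 nearest to each side of the thresholds. For each contrast the 5 called members with the largest differences were named, with some exceptions added after their values were seen. Replicate numbers pair the total RNA arrays: same-numbered hypoxic and control arrays deviated together with r of 0.26, 0.54 and 0.72 in roots and 0.36, 0.22 and 0.60 in shoots.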

Additional observations from a re-analysis of the deposited data

Results flagged for a closer look

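In total RNA the hypoxia response differed between roots and shoots, by a test of the difference itself, for 5 of the 47 probe sets, all larger in roots: AT2G32020 by 2.38, 258487_at by 2.32, AT1G32920 by 2.07, 252131_at by 1.87 and AT3G10040 by 1.45 on the log2 scale. In pSUC2, which the selection used, the root and shoot responses of AT3G10040 were 7.26 and 6.26 and those of 258487_at were 6.59 and 6.49. The 1 group with 4 arrays, control root total RNA, held no array far from the other 3 in any of 23 members looked at.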

How the results depend on the processing

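Counts of called members were recomputed under each alternative, and of 191 such counts, 161 stayed within 1.5 times. Counts over all probe sets under the alternatives are not given here. With 50 added to the linear values, root total RNA gave 8 and the root minus shoot difference in p35S gave 1, while 31 probe sets met the selection, all of them among the 47; 1 member, against none, was then called lower in shoot p35S, beside 2 higher, and shoot total RNA gave 2 higher and 1 lower. Renewed quantile normalization gave 4 for p35S minus total RNA in control roots (3 higher and 1 lower) and 1 in control shoots, and leaving out dim probe sets also gave 1 there. Fits to the compared groups alone gave 4 in root p35S, 2 in shoot total RNA and 1 in the root minus shoot difference of total RNA. For p35S minus total RNA they gave 1 in hypoxic roots, 0 in hypoxic shoots and 1 in control shoots. Such fits estimate the spread from fewer arrays, and from those groups alone. The members' SD had a median of 0.87 in hypoxic root p35S and 0.18 in control root p35S. What changed the counts was not tested. The replicate block gave 1 for p35S minus total RNA in hypoxic roots, and changed the count of no other comparison by over 1.5 times (root total RNA 14, root p35S 17); it turned AT3G51720 in root p35S to -0.079, called AT3G10930 there at 1.30 and lost 250296_at and 254066_at there and 247279_at in p35S minus total RNA of hypoxic roots, at 2.40, 1.1 and 0.95. In p35S same-numbered hypoxic and control arrays deviated with r of 0.22 and 0.15 in roots and 0.24 in shoots. Whether the number pairs them as in total RNA is not known here.

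Leaving out 1 array at a time gave 3 to 34 in root p35S, 10 to 25 in root total RNA, 2 to 3 in shoot p35S, 3 to 4 in shoot total RNA, 0 to 16 and 4 to 5 for root minus shoot in p35S and total RNA, 1 to 22 and 2 to 4 for p35S minus total RNA in hypoxic and control roots, 0 to 2 and 0 to 0 in hypoxic and control shoots, 0 to 1 and 3 to 5 for pSultr2;2 minus p35S in roots and shoots, and 0 to 2 for the change of loading in roots; 36 to 54 probe sets met the selection. 1 called difference changed sign, that of 250296_at in root p35S (-0.021 to 4.77). Uncalled ones that did ranged, in root p35S, from -0.11 to 0.32 for AT3G51720, -0.11 to 0.20 for AT1G68500, -0.56 to 0.43 for AT3G06480, -0.22 to 3.43 for 248332_at, -0.32 to 4.13 for AT1G52560, -0.40 to 3.33 for AT2G29500 and -0.027 to 1.25 for Hop3; in root total RNA, from -0.47 to 0.56 for AT3G06480 and -0.11 to 1.31 for 248332_at; in shoot total RNA, from -0.23 to 0.078 for AT1G52560, -0.089 to 0.19 for AT3G62260, -0.53 to 0.13 for AT2G32020, -0.47 to 0.12 for AT3G51720, -0.15 to 0.23 for AT1G32920, -0.068 to 0.40 for AT1G68500, -0.63 to 0.15 for AT3G06480 and -0.038 to 0.21 for AT4G39780; and in shoot p35S, from -0.073 to 0.31 for AT4G39780, -0.0058 to 1.67 for 248332_at and -0.28 to 0.53 for AT3G06480. The cause was not tested. Under the same selection, the pGL2 line, added as an alternative after seeing the data, gave 0 probe sets. In roots pGL2 tags epidermal cells without hairs and in shoots trichomes, so this is not a like comparison with pSUC2. Promoter sequences were not used here.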

Other observations

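Under hypoxia the level of a member was highest in pSUC2 among the compared promoter lines for 33 of the 47 in roots and 40 in shoots. The selection used these arrays, so the counts are a description, and the share over all probe sets was not computed. In hypoxic root p35S, 25 members in replicate 1 and 44 in replicate 3 exceeded every control array, beside 28.8% and 33.5% of all probe sets. In hypoxic root total RNA these were 24 in replicate 1, 40 in replicate 3 and 38 in replicate 4, beside 24.5%, 28.7% and 24.2%. In hypoxic shoot p35S they were 28 and 43, beside 27.9% and 36.5%. AT5G37670, the small heat shock protein just outside the selection, differed by 2.06 ± 0.80 in root p35S and 1.69 ± 0.67 in root total RNA (SE), neither called (limma's adjusted p = 0.154 and 0.111). Without hypoxic replicate 1 of the population it was called, at 4.64 in p35S and 2.69 in total RNA. Of the other 4 just outside, 247351_at and 254120_at were called in both root populations, at 1.70 and 2.34 in p35S and 1.1 and 1.55 in total RNA. Without hypoxic replicate 3 of the population neither was called, at 0.90 and 1.11 in p35S and 1.00 and 1.23 in total RNA, and 247351_at in total RNA was also lost without hypoxic replicate 4 (0.69) or control replicate 2 or 3 (1.03 and 1.02). Of those uncalled, 255926_at was called in p35S without hypoxic replicate 1 (2.01), and 253323_at in total RNA without hypoxic replicate 1 (1.53) or control replicate 4 (1.27). WRKY6 in shoots averaged 6.25 in hypoxic and 5.51 in control pSUC2 arrays, against medians of 8.14 and 7.21 in the other lines.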
